A study of Homo sapiens with 6 samples.

Results

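The genes described here are those of the cytosolic ribosomal proteins, taken by their symbols: RPL or RPS followed by a number and, where present, the letter A or X, together with RPLP0, RPLP1, RPLP2 and RPSA. The rule found 77 of the 16315 genes in the table, 31 of the small (40S) subunit and 46 of the large (60S) subunit. The rule reads symbols alone and uses no measured value, but it was set with earlier results of these data known. They were measured by bulk RNA-seq of poly-A RNA in F36P, an established human erythroleukaemia line that depends on cytokines and has erythroid features. The sgHDAC7 cells were transduced with a guide against HDAC7 (a histone deacetylase of class IIa) and are labelled HDAC7 knockout. The sgNT cells were transduced with a non-targeting guide, and cells of both groups carried a puromycin resistance plasmid and were kept for 4 days under puromycin at 1 µg/ml. There were 3 libraries a group, labelled as biological replicates. Nothing says that they came from separate cultures, so p-values measure the spread between these libraries, which may be technical.

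Each ribosome holds 1 copy of nearly every ribosomal protein, and cells keep the messenger RNAs of these proteins at high and matched levels. Most of these messages begin with a C followed by a run of pyrimidines, the 5′ terminal oligopyrimidine (TOP) motif, through which mTORC1 and the RNA-binding protein LARP1 control their translation and stability. Red cell precursors are sensitive to ribosome supply: loss of 1 allele of any of several of these genes causes Diamond-Blackfan anaemia, and loss of RPS14 contributes to the anaemia of the 5q- syndrome. Ribosomal protein genes also left many processed pseudogenes, which are near copies of their messages without introns, scattered over the genome.

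Library totals ran from 11645003 to 12521195 counts in sgHDAC7 and from 10039693 to 11149179 in sgNT, and levels below are CPM (a gene's counts scaled to a common library size) after TMM scaling. HDAC7 had 194, 238 and 246 CPM in sgHDAC7, against 449, 460 and 461 CPM in sgNT, a log2 fold change of -1.02 ± 0.09 (SE, edgeR adjusted p = 0.00139). The erythroid transcription factor gene GATA1 was present at 224 to 236 CPM in sgHDAC7 and 198 to 246 CPM in sgNT, and the fibroblast collagen gene COL1A1 stood at 2.75 CPM or less in every library.

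The starts of several of these genes show the TOP motif in its place. Each line gives 30 bases before and 20 bases from the transcription start of the RefSeq promoter table (GRCh38.p14), read on the gene's strand. Capitals mark the unbroken run of C and T that begins at the start, or the start base alone where the next base is a purine. RPL39, RPS21, RPL31 and RPS13 are shown as genes with the motif whose groups did not overlap, and RPS29 and RPS15 as genes without it at this position.
RPL39, X:119791611-119791660, minus strand: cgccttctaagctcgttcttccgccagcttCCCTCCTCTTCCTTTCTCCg
RPS21, 20:62387073-62387122, plus strand: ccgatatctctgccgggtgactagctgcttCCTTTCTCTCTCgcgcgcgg
RPL31, 2:101002259-101002308, plus strand: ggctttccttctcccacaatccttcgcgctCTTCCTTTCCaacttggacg
RPS13, 11:17077648-17077697, minus strand: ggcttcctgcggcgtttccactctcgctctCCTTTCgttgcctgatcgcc
RPS29, 14:49598691-49598740, minus strand: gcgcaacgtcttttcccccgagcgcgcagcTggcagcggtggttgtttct
RPS15, 19:1438366-1438415, plus strand: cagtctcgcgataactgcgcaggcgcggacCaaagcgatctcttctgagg

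A C at the start followed by at least 4 pyrimidines, read on the gene's strand, was found in 46 of the 62 ribosomal protein genes with a promoter in that table (74.19%), against 5.142% of all 27305 genes in it. Allowing the run to begin within 10 bases of the annotated start gave 57 of 62 (91.94%), against 38.43% of all genes. An annotated start can lie a few bases off the one used in these cells, so a missing run says only that these letters are not at that position.

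Ribosomal protein messages stood slightly below the controls in sgHDAC7 as a group, while no single gene of the family passed the test with group as the single term. Of 76 genes tested, 69 had a log2 fold change below 0, against 50.3% of all 13841 genes tested. The median over the 76 was -0.11, with single genes from -0.61 to 0.21, against a median of 0.00 for all genes. In bulk RNA, fewer cells of a type and less RNA per cell cannot be told apart. None was called higher and none lower (edgeR quasi-likelihood test, adjusted p under 0.05), against a background of 1.16% of genes called higher and 1.7% called lower. The smallest adjusted p was 0.0835, for RPS29. DESeq2 called 2 genes lower, RPS29 and RPS21, against 3.23% of all genes, and without sgNT replicate 1 edgeR called 1 lower, RPS3, against 6.23%. A term for replicate 1 raised the count to 13 lower (6.81% of all genes), and replicates 2 and 3 alone gave 14 lower (10.9% of all genes). At an unadjusted p under 0.05, 23 genes were lower and 0 higher, beside 9.99% and 9.18% of all genes. The 77th gene, RPL36A, had 1 to 8 counts per library and was below the filter of a mean of 1 CPM.

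The share of all counts on the 77 genes was lower in every sgHDAC7 library than in any sgNT library. It was 2.98%, 2.93% and 3.25% in sgHDAC7, against 3.34%, 3.28% and 3.33% in sgNT, or 3.05 ± 0.167% against 3.32 ± 0.0338% (SD, n = 3 each). The highest sgHDAC7 library lay just under the lowest sgNT library, and the difference of -0.262 percentage points compares with a pooled SD of 0.121 points. The balance of the subunits was alike in both groups: the counts on small subunit genes divided by those on large subunit genes gave 0.695, 0.689 and 0.701 in sgHDAC7 and 0.70, 0.693 and 0.704 in sgNT. The median log2 fold change was -0.11 for the small subunit genes (29 of 31 below 0) and -0.11 for the large subunit genes (40 of 45 below 0).

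The third sgHDAC7 library stood apart from the other two of its group in these genes. The median log2 ratio of the 76 genes to the sgNT mean was -0.19 and -0.18 in sgHDAC7 replicates 1 and 2 and -0.02 in replicate 3, against 0.02, -0.02 and 0.00 in the 3 sgNT libraries. In sgHDAC7 replicates 1, 2 and 3, 64, 59 and 25 of the 76 genes lay below every sgNT library. In sgNT replicates 1, 2 and 3, 17, 40 and 19 of them lay below both other sgNT libraries. The count of sgHDAC7 replicate 3 thus fell between those of sgNT libraries, each set against 2 libraries rather than 3. Set against the sgNT library of the same number, the medians were -0.19, -0.16 and -0.01, with 72, 63 and 41 genes below 0. Without sgHDAC7 replicate 3 the median of the fitted log2 fold changes was -0.18, and without any other single library it lay between -0.12 and -0.09.

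**Figure D1:**
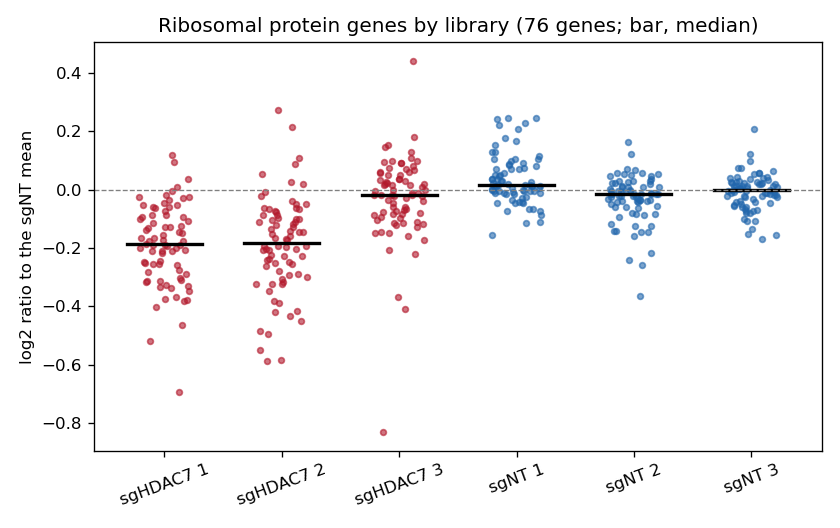
Each point is 1 of 76 ribosomal protein genes, placed by the log2 ratio of its CPM (with 0.5 added) in that library to the sgNT mean; bars are medians over genes. The medians of sgHDAC7 1 and 2 sit at -0.19 and -0.18, and sgHDAC7 3 sits at -0.02, beside the 3 sgNT libraries.

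The 77 genes differed in how far they stood from the controls. Groups did not overlap in 23 genes that were lower in sgHDAC7, against 12.2% of all genes, and in 1 that was higher (RPS15), against 13% of all genes. The genes named next were mostly the extremes of the fold change or part of a fixed panel of well-known members. That panel was also set with earlier results of these data known. RPS21, RPL34, RPL31, RPS13, RPLP1 and RPL8 were chosen after their values were seen.

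RPS29 encodes a small zinc-binding protein of the head of the 40S subunit and is 1 of the Diamond-Blackfan genes (14:49570984-49599164, minus strand, GRCh38). It had 76.1, 72.6 and 97.7 CPM in sgHDAC7, against 115, 111 and 101 CPM in sgNT. The groups did not overlap, but sgHDAC7 replicate 3 came within a few CPM of sgNT replicate 3. The level was 75.2% of the control (log2 fold change -0.41 ± 0.11, edgeR adjusted p = 0.0835).

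RPL39, which lines the tunnel through which the nascent chain leaves the 60S subunit, had 12.4, 14.3 and 17.5 CPM in sgHDAC7, against 21.5, 19.5 and 20.02 CPM in sgNT. All 3 sgHDAC7 libraries were below all sgNT libraries, and the level was 72.5% of the control (log2 fold change -0.46 ± 0.15, edgeR adjusted p = 0.123). RPS21, a protein of the 40S subunit, had 296, 289 and 359 CPM in sgHDAC7, against 392, 382 and 383 CPM in sgNT (log2 fold change -0.29 ± 0.09, edgeR adjusted p = 0.099). It has no pseudogene row in the table, so its counts are not split by name.

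RPL31 and RPL34 are proteins of the 60S subunit, RPL31 at the exit of the tunnel. RPL31 had 238, 222 and 281 CPM in sgHDAC7, against 298, 296 and 304 CPM in sgNT. RPL34 had 242, 222 and 279.5 CPM in sgHDAC7, against 313, 306 and 291 CPM in sgNT. RPS13, of the 40S subunit, had 236, 225 and 277 CPM in sgHDAC7, against 295, 308 and 279 CPM in sgNT. In all of these genes the groups did not overlap and sgHDAC7 replicate 3 was the closest to the controls; none passed the test (edgeR adjusted p = 0.122, 0.103 and 0.141 in that order).

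RPS27A, made as a fusion of ubiquitin with a 40S protein, had 69.0, 64.9 and 85.8 CPM in sgHDAC7, against 102, 98.7 and 84.7 CPM in sgNT. Its groups overlapped through sgHDAC7 replicate 3 and sgNT replicate 3 (log2 fold change -0.38 ± 0.11, edgeR adjusted p = 0.111). The own row of RPS27A held 14.1% of the counts under its name. With its pseudogene rows added the log2 fold change was -0.10 (edgeR adjusted p = 0.503). The remaining extremes were genes of low own counts. RPS28 had 3.38, 2.59 and 2.10 CPM in sgHDAC7, against 3.85, 3.68 and 4.84 CPM in sgNT, and RPS27 had 6.83, 7.15 and 6.63 CPM in sgHDAC7, against 7.99, 9.78 and 9.11 CPM in sgNT. Neither passed the test (edgeR adjusted p = 0.243 and 0.221). RPS27 had a log2 fold change of -0.38 on its own row, which held 1.94% of the counts under its name. With its pseudogene rows added it was -0.10.

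At the other end, RPS15, a 40S head protein needed for export of the subunit from the nucleus, had 209, 203 and 222 CPM in sgHDAC7, against 201, 190 and 196 CPM in sgNT. The groups were apart by a narrow margin (log2 fold change 0.11 ± 0.06, edgeR adjusted p = 0.378). RPL9 (log2 fold change 0.21 ± 0.20), RPS26 (0.15 ± 0.15), RPL10A of the L1 stalk (0.05 ± 0.06) and RPL6 (0.03 ± 0.06) were the other genes with the highest fold changes, and in each the groups overlapped.

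Of the pair that carries 5S ribosomal RNA and binds MDM2 when ribosome assembly is disturbed, RPL5 had 545, 530 and 566 CPM in sgHDAC7, against 584, 635 and 614 CPM in sgNT. RPL11 had 840, 912 and 997 CPM in sgHDAC7, against 974, 946 and 947 CPM in sgNT. The RPL5 groups did not overlap and those of RPL11 did (log2 fold changes -0.16 ± 0.06 and -0.06 ± 0.07, edgeR adjusted p = 0.195 and 0.697).

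RPS19, the gene most often mutated in Diamond-Blackfan anaemia, had 964, 873 and 1035 CPM in sgHDAC7, against 999.7, 1032 and 971 CPM in sgNT, with overlapping groups (log2 fold change -0.06 ± 0.07, edgeR adjusted p = 0.685). RPS14 had 313, 287 and 342 CPM in sgHDAC7, against 331, 354 and 339.5 CPM in sgNT (log2 fold change -0.12 ± 0.07, edgeR adjusted p = 0.408). Of 22 Diamond-Blackfan genes on the list, none was called, 20 were below 0, and the median log2 fold change was -0.14. The share below 0 was 90.9%, beside 90.8% of all 76 tested ribosomal protein genes, whose median was -0.11 and of which none was called.

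The stalk of the 60S subunit, which recruits the GTPases of translation, consists of RPLP0, RPLP1 and RPLP2 on a base of RPL12. RPLP1 had 461, 440.1 and 491 CPM in sgHDAC7, against 572, 504 and 527 CPM in sgNT (log2 fold change -0.20 ± 0.07, edgeR adjusted p = 0.159). RPLP0, RPLP2 and RPL12 had log2 fold changes of -0.07, -0.11 and -0.14, so all 4 were below 0 on their own rows and none was called. The own row of RPL12 held 32.6% of the counts under its name, and with its pseudogene rows added the log2 fold change was 0.00. RPS6, the substrate of S6 kinase, had 416, 402 and 479 CPM in sgHDAC7, against 461, 461 and 467 CPM in sgNT, with overlapping groups. RPL8, the ribosomal protein gene with the most counts on its own row, had 1787, 1707 and 1814 CPM in sgHDAC7, against 1787, 1778 and 1820.4 CPM in sgNT.

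**Figure D2:**
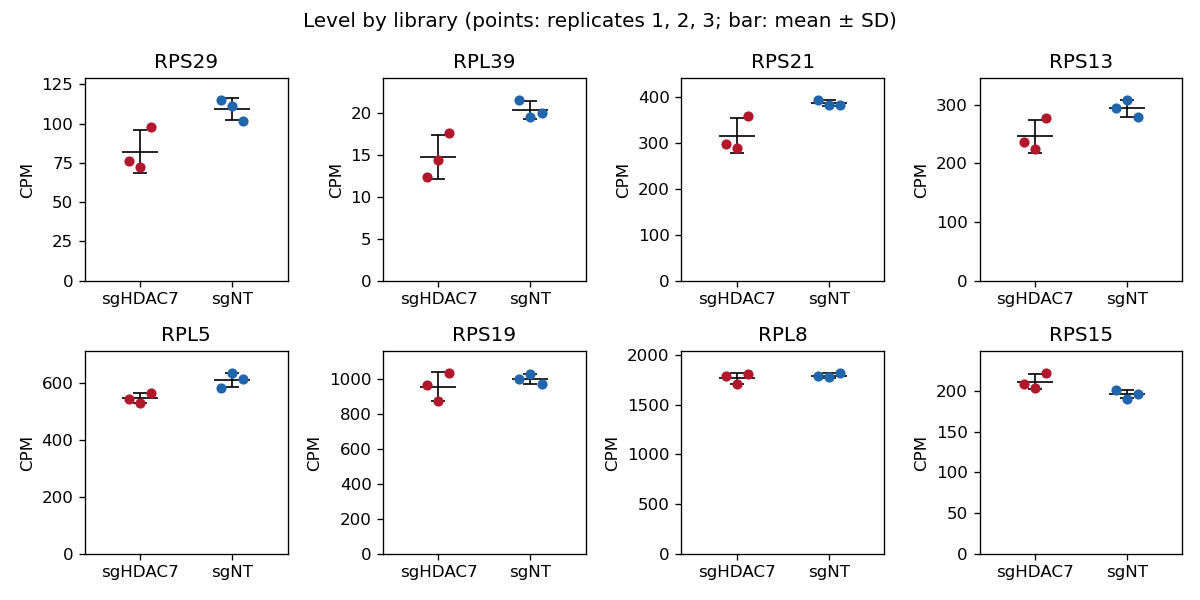
Points are the CPM of single libraries (replicates 1, 2 and 3 from left to right within a group) and bars the mean ± SD of 3; axes start at 0. In RPS29, RPL39, RPS21 and RPS13 the third sgHDAC7 library is the one closest to sgNT, and in RPS15 all sgHDAC7 libraries lie above all sgNT libraries.

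By place in the ribosome, none of the lists had a called gene. The 9 genes of the tunnel exit had a median log2 fold change of -0.07, all of them below 0, and the 14 genes of the 40S head had a median of -0.11, with 13 below 0. The 33 genes with counterparts in bacteria and archaea had a median of -0.07, with 29 below 0. Beside these lists, all 76 tested ribosomal protein genes had a median of -0.11, with 69 below 0 and none called. The 3 X-linked genes tested were RPL39, RPS4X (log2 fold change -0.06) and RPL10 (0.01).

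Over all libraries the median was lower for genes with shorter annotated transcripts, but not in every pair of libraries. Among 19 ribosomal protein genes whose coding transcripts had a median length under 600 bases, the median log2 fold change was -0.19, against -0.10 in the 57 longer ones. These are lengths of annotated transcripts, not of the messages in these cells. RPS29, with a principal transcript of 296 bases and a median of 677, counts among the longer ones. By replicate number, the medians were -0.25, -0.25 and 0.01 for the shorter genes and -0.18, -0.11 and -0.01 for the longer ones, so the order was the opposite in replicate 3. The numbers do not pair all samples, as the closing section gives, so orders by replicate number depend on how libraries are matched. Other coding genes of the same short lengths (128 tested) had a median of -0.01, and longer ones (11019 tested) 0.00. Across the 76 genes, Spearman's rho of the fold change was 0.23 with transcript length, 0.354 with coding length and 0.342 with mean CPM. Genes are not independent replicates and share the libraries, so these are descriptions. The 45 tested genes with the pyrimidine run at the annotated start had a median of -0.14, with 43 below 0, and the 16 without it had a median of -0.06, with 11 below 0. By replicate number, these medians were -0.24, -0.20 and -0.01 with the run and -0.14, -0.04 and -0.03 without it, again in the opposite order in replicate 3. The run lay at the start in 46 of 62 genes and within 10 bases of it in 57, so most genes without it have one nearby. RPL9 and RPS28, in the group without it, had 1.49% and 1.45% of the counts of their names on their own rows. Both changed sign when pseudogene rows were added. The part of length or of the motif in the differences between these groups of genes was not tested.

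**Figure D3:**
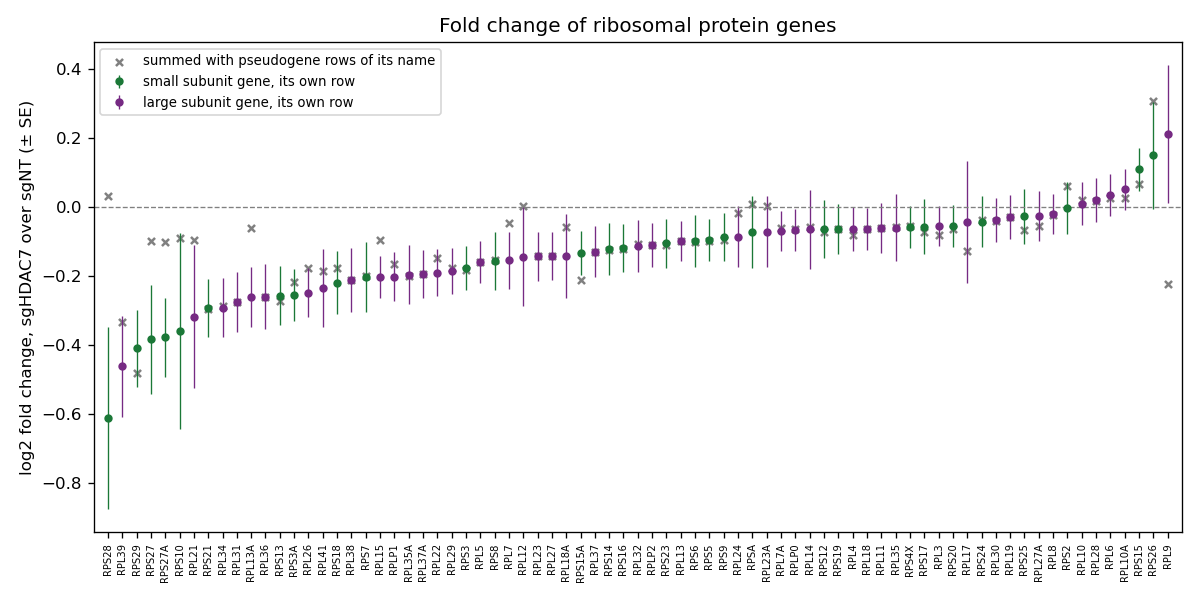
Filled points are log2 fold changes (sgHDAC7 over sgNT, ± SE) of 75 of the 76 tested ribosomal protein genes in order of size, green for the small and purple for the large subunit; crosses are the same after adding the pseudogene rows of that name. Most filled points lie between -0.30 and 0, and RPS28 and RPL9, at either end, change sign when pseudogene rows are added.

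A large part of the counts under ribosomal protein names lay on pseudogene rows, of which the table holds 295, belonging to 73 of the 77 genes. These rows took 2.04% to 2.22% of all counts in sgHDAC7 and 2.21% to 2.26% in sgNT, beside the shares of the genes themselves given above. For RPS28 the gene's own row held 1.45% of the counts under its name, and for RPL39 6.59%. The counts were on RPS28P7 (chromosome 11), with 216, 222 and 252 CPM in sgHDAC7 and 214, 230.1 and 224 CPM in sgNT, and on RPL39P3 (chromosome 6), with 215, 196 and 247 CPM in sgHDAC7 and 273, 287 and 264 CPM in sgNT. The copies are close to or at identity with the coding sequence of the gene. All 210 coding bases of RPS28, stop codon included, are the same in RPS28P7, and all 156 of RPL39 in RPL39P3. RPS3A differs from RPS3AP6 (chromosome 15) at 4 of 795 coding bases. The first 90 coding bases of these pairs, from GENCODE 29 transcripts, are shown because a read that falls within them cannot be placed by sequence except over the base in capitals, where a pair differs.
RPS28, chromosome 19: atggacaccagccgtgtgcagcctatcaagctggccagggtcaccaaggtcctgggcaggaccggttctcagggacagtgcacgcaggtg
RPS28P7, chromosome 11: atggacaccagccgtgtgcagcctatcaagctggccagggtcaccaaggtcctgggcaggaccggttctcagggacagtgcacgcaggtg
RPS3A, chromosome 4: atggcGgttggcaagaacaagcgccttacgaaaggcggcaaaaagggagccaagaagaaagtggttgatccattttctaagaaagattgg
RPS3AP6, chromosome 15: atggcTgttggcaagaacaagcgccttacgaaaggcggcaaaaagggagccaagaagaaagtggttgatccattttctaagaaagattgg

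The share of a name's counts on the gene's own row was lower where the pseudogenes repeat more of its sequence. Whether the counts on pseudogene rows come from messages of the gene or of the pseudogenes was not tested. Over the 77 genes, Spearman's rho was -0.96 between that share and the percentage of 50-base windows of the coding sequence also found in a GENCODE pseudogene transcript. RPS19, with 2.06% of windows repeated, had 99.8% of the counts of its name on its own row, and RPS29, with 59.0%, had 55.4%. RPS28 and RPL39 had all windows repeated. RPL41 was an exception: all of its 29 windows were repeated, yet its own row held 55.7% of the counts. In 26 genes the own row held at least 90% of the counts. Their median log2 fold change was -0.10, with 25 below 0, and that of the 50 other tested genes was -0.12, with 44 below 0.

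**Figure D4:**
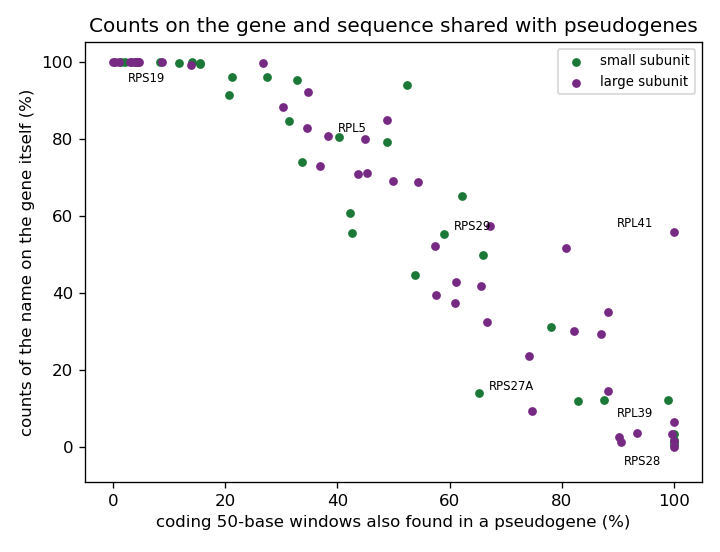
Each point is 1 of 77 ribosomal protein genes; the x axis is the percentage of 50-base coding windows also found in a pseudogene transcript and the y axis the percentage of the counts under that name on the gene's own row. The share of own counts goes down from near 100% where little is repeated to 1.45% for RPS28, 0.546% for RPS10 and 0.105% for RPL36A, where every window is repeated. RPL41 is an exception, with every window repeated and 55.7% on its own row.

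Adding the pseudogene rows to the gene of the same name narrowed the spread of levels. Per kilobase of principal coding transcript, RPS16 and RPL8 were among the highest genes, with means of 1820 and 1834 CPM per kilobase in sgHDAC7 and 1978 and 1860.4 in sgNT. The lowest were RPL36A, RPS28 and RPS10, with 0.697, 2.03 and 2.82 CPM per kilobase in sgHDAC7 and 1.19, 3.11 and 3.63 in sgNT. In sgHDAC7, RPS16 and RPL8 differed by less than the spread between libraries. The ratio of the 75th to the 25th percentile of level per kilobase over the 77 genes was 6.09 with the principal transcript, 4.31 with the median transcript length, and 2.29 with the median length and the pseudogene rows added. After adding, every name had a mean of 130 to 2259 CPM. RPL36A, near absent on its own row, then had 377, 366 and 415 CPM in sgHDAC7 and 399.6, 386 and 376 CPM in sgNT, nearly all of it from RPL36AP37.

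**Figure D5:**
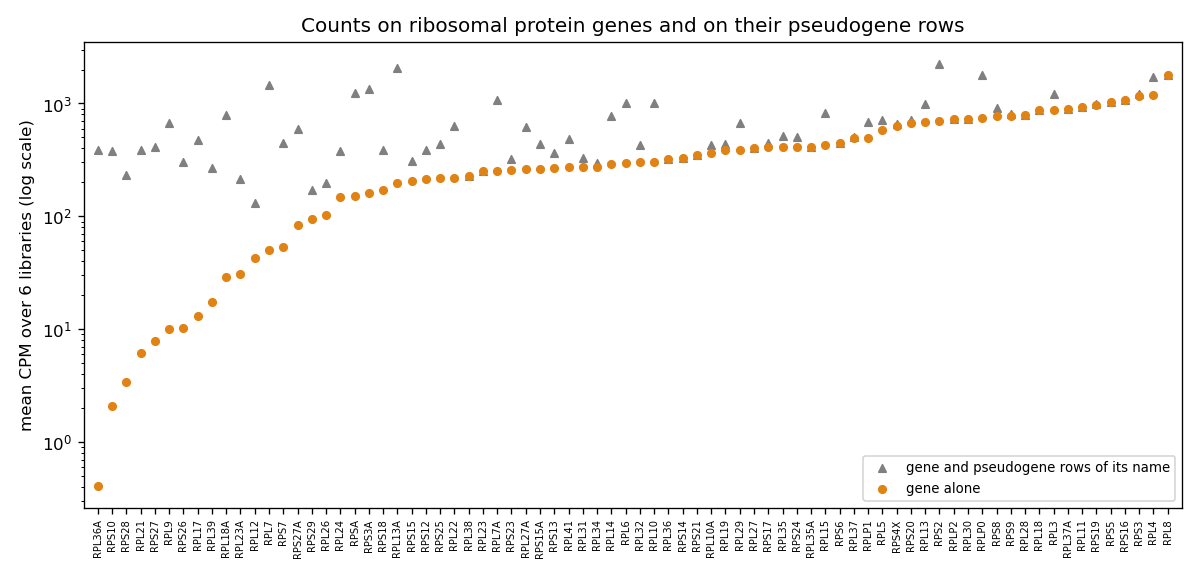
Circles are the mean CPM over 6 libraries on the own rows of 76 of the 77 ribosomal protein genes, in rising order, and triangles the mean with the pseudogene rows of that name added (log axis). Circles span from under 1 to over 1000 CPM, while every triangle lies between 130 and 2259 CPM.

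In the comparison of the summed names, again none of 77 was called either way (background 1.75% called lower and 1.16% called higher), 66 were below 0 and the median log2 fold change was -0.10. Groups did not overlap in 22 names that were lower, against 12.2% of all rows, and in 0 that were higher, against 13.1%. RPS29 had the smallest adjusted p: its name had 137, 124 and 171 CPM in sgHDAC7, against 192, 194 and 217 CPM in sgNT (log2 fold change -0.48 ± 0.11, edgeR adjusted p = 0.0526). RPL39 had 229, 212 and 266 CPM in sgHDAC7, against 296, 308 and 285 CPM in sgNT (-0.33 ± 0.09, edgeR adjusted p = 0.0728).

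Of the 76 names with a fold change on both scales, 6 changed sign: RPS28, RPL9, RPL12, RPL23A, RPSA and RPS2. RPL12, RPL23A, RPSA and RPS2 came to 0.00, 0.00, 0.01 and 0.06 as summed names, against -0.14, -0.07, -0.07 and 0.00 on their own rows. RPL9 had 597, 586 and 687 CPM in sgHDAC7, against 719, 732 and 728 CPM in sgNT, so that its groups no longer overlapped and its log2 fold change was -0.22, against 0.21 on the own row. The name RPS28 came to 0.03, against -0.61 on the own row. The name RPS26 gave the highest value, with 294, 335 and 376 CPM in sgHDAC7, against 311, 255 and 245 CPM in sgNT (0.31 ± 0.11, edgeR adjusted p = 0.166), and its groups overlapped through sgNT replicate 1. Among 192 pseudogene rows tested on their own, RPS13P2 alone was called, at 85.7, 82.9 and 86.6 CPM in sgHDAC7 against 108.5, 104 and 104.9 CPM in sgNT (log2 fold change -0.31 ± 0.06, edgeR adjusted p = 0.034). Its call was lost without any single library other than sgNT replicate 1, in fits that called 0.094% to 1.05% of all genes lower.

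When replicate 1 of both groups was given a term of its own, 13 ribosomal protein genes were called lower and 0 higher, against 6.81% and 5.78% of all genes called. They were RPS29, RPS21, RPL26, RPL34, RPS3A, RPL15, RPS27A, RPL31, RPL39, RPL13A, RPS13, RPS3 and RPLP1, with log2 fold changes from -0.47 to -0.18. The own rows of RPL13A, RPS27A, RPS3A and RPL39 held 9.55%, 14.1%, 12.2% and 6.59% of the counts of their names. As summed names, with group as the single term, they came to -0.06, -0.10, -0.22 and -0.33. That fit takes the difference between the guides to be the same in replicate 1 as in replicates 2 and 3, whereas the medians by replicate number given above were -0.19, -0.16 and -0.01. On replicates 2 and 3 alone (2 libraries a group) 14 genes were lower and RPL9 higher, against 10.9% and 9.79% of all genes, and 11 genes were called in both fits.

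Among the lists of genes that act with the ribosomal proteins, PDCD2 was called higher and DDIT4 and SESN2 lower, as given below. Of all genes tested, 1.16% were called higher and 1.7% lower. FAU, which encodes a 40S protein fused to a ubiquitin-like part, had a log2 fold change of -0.01 ± 0.06, and the 40S scaffold gene RACK1 had -0.18 ± 0.06 (edgeR adjusted p = 0.935 and 0.131 in that order). RACK1, whose groups did not overlap, was chosen after its values were seen. The standard error of FAU still allows a difference of about the size of the median of the 76 genes. The paralogue genes RPL22L1 and RPS27L had 0.24 ± 0.18 and 0.31 ± 0.14, with overlapping groups in both.

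Among 20 other messages of the translation machinery and related genes known to carry the TOP motif, none was called, the median log2 fold change was -0.07 and 14 were below 0. TPT1, a translationally controlled tumour protein, had 405, 459 and 489 CPM in sgHDAC7, against 531, 611 and 604 CPM in sgNT (edgeR adjusted p = 0.054). EEF1A1, which brings aminoacyl-tRNA to the ribosome, had 1604, 1591 and 1633 CPM in sgHDAC7, against 1762, 1854 and 1861 CPM in sgNT (edgeR adjusted p = 0.124). The groups did not overlap in either gene, and both were chosen after their values were seen. Of 13 TOP genes that host small nucleolar RNAs, none was called, the median was -0.07 and 7 were below 0, close to the share of all genes; at an unadjusted p under 0.05, 3 were higher and 0 lower.

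Of 13 tested chaperones of ribosomal proteins, PDCD2, which escorts RPS2, rose in sgHDAC7. It had 94.2, 86.7 and 97.5 CPM, against 70.4, 71.6 and 67.1 CPM in sgNT, with groups well apart (log2 fold change 0.41 ± 0.07, edgeR adjusted p = 0.0249). The adjusted p was 0.06 to 0.139 without any single library other than sgNT replicate 1. Those fits called 0.101% to 0.628% of all genes higher, against 1.16% with all libraries. Its client RPS2 had a log2 fold change of 0.00 ± 0.08. The median of the 13 was 0.08, with 11 above 0.

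Of 15 regulators of TOP messages and mTORC1, DDIT4 and SESN2, stress-induced inhibitors of mTORC1, fell and none was called higher. DDIT4 had 57.2, 64.7 and 66.1 CPM in sgHDAC7, against 104, 801 and 811 CPM in sgNT, and SESN2 had 15.7, 16.7 and 15.0 CPM in sgHDAC7, against 21.6, 116 and 118 CPM in sgNT. In both genes sgNT replicates 2 and 3 were far above sgNT replicate 1 (edgeR adjusted p = 0.0287 and 0.0384), and both calls were lost without any single library other than sgNT replicate 1 and in the limma fit. Those fits with a library left out called 0.094% to 1.05% of all genes lower, against 1.7% with all libraries. LARP1 had a log2 fold change of -0.01 ± 0.07. Of 12 genes of ribosome surveillance, among them MDM2, none was called and the median was -0.03.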

How the data were processed

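The deposited table is named CPM, but 100% of its values are whole numbers and its column totals differ, so the deposited values were taken as unscaled read counts per gene. The submitters' processing notes name hg38 and edgeR 3.32.1; the aligner, the counting tool, the strand setting and the handling of reads with several matches were not given in the sources used here. Columns named NC were taken as sgNT, the only other group. The labels assign the groups. There were 0 further columns of values.

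Counts were scaled by TMM and tested by quasi-likelihood in edgeR 4.0.16 under R 4.3.3 (group alone, two-sided, Benjamini-Hochberg over the 13841 genes averaging 1 CPM or more, threshold 0.05). Standard errors are the size of the log2 fold change divided by the root of F. Library totals set the depth: 3 counts are 0.24 to 0.299 CPM, which covers counting error only. DESeq2 1.42.0, limma 3.58.1, other scalings, filters, replicate terms and left-out libraries were alternatives; the summing of pseudogene rows was added after seeing the data. Positions and lengths come from GENCODE 29, pseudogene and promoter positions from RefSeq (294 of 295 pseudogene rows matched). Scripts were tested on simulated data.

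The members and lists were chosen with earlier results of these data known. Genes named outside the rule below, such as RPS21, RPLP1, RACK1 and TPT1, were chosen after their values were seen. Named genes are the 5 highest and 5 lowest log2 fold changes, the 3 highest and 3 lowest levels per kilobase, a fixed panel (RPS19, RPS14, RPL5, RPL11, RPLP0, RPS27A, RPS6, RPS26, FAU, RPL22L1, RPS27L, LARP1) and called list genes; some genes that meet the rule are not reported here.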

Additional observations from a re-analysis of the deposited data

How the results depend on the processing

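No ribosomal protein gene was called under RLE, upper-quartile or total-count scaling, TMM without these genes, no filter, a mean CPM of at least 5, limma or summed pseudogene rows. In these fits 1.39% to 2.19% of all genes were called lower and 0.968% to 1.56% higher. DESeq2 called 2 lower (RPS21 and RPS29). The replicate 1 term called 13 lower, replicates 2 and 3 alone called 14 lower and 1 higher, and fits that left out a single library called 0 to 1 lower (RPS3, without sgNT replicate 1). Without sgNT replicate 1, 6.23% of all genes were called lower, against 0.094% to 1.05% without any other single library. Those other fits called few genes of any kind. The median log2 fold change ran from -0.181 (without sgHDAC7 replicate 3) to -0.0893 (without sgHDAC7 replicate 2) with single libraries left out; the cause was not tested. Same-numbered libraries correlated at 0.303, 0.107 and 0.0968 in their deviations from group means, and replicates 2 and 3 correlated best with the other's number (0.159 and 0.155), so the numbers do not pair all samples. Replicate 1 correlated at 0.303 with its own number and at -0.216 to -0.179 with the others. Deviations within a group sum to 0, so these negative values follow from the positive one and add no separate information. With the replicate block 4 genes were called lower (RPL13A, RPL31, RPS21 and RPS29), against 4.1% of all genes. The spread of levels was 6.09, 4.31 with the median length, and 2.29 with the median length and pseudogene rows added. Signs reversed for RPL11 on replicates 2 and 3 alone (0.0124) and, with pseudogene rows summed, for 6 genes: RPS28 (0.0319), RPL9 (-0.223), RPL12, RPL23A, RPSA and RPS2 (0.00 to 0.06). With single libraries left out, values crossed 0 for RPL6 (-0.000384 to 0.053), FAU (-0.0438 to 0.0238) and LARP1 (-0.0614 to 0.0175). Low counts limit RPL36A, RPS10 and RPS28 on their own rows, which held 0.105%, 0.546% and 1.45% of the counts of their names.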
